A study of Margaritifera margaritifera with 32 samples.

Results

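The ATP synthase contigs are the rows of the count table whose names begin with ATP5. There were 5 of them among the 51392 assembled contigs of the table, namely ATP5A1, Atp5l.1.2, Atp5l.2.2, atp5o.1.2 and atp5o.2.2. The rows were taken by name alone, but the name was chosen with earlier results of these data known. All 5 were among the 51264 contigs that passed the filter on low counts. A contig is a transcript sequence assembled from reads without a genome. Its name is the one the authors gave it, and the number pair that ends a name, as in atp5o.1.2, is read here as the first of 2 contigs under that name.

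The libraries are RNA-seq of kidneys from the endangered bivalve Margaritifera margaritifera, the freshwater pearl mussel, taken from the Dronne River in France above and below a wild dump, in a study of trace metals in the water. The 4 groups of 8 animals were the downstream site in March 2010, the upstream site in March 2010, the downstream site in April 2009 and the upstream site in April 2009. The labels also give an age class, with 10 young, 11 middle-aged and 11 old animals in all. Age was unevenly spread: the downstream 2009 group held 0 young, 1 middle-aged and 7 old animals, against 3 young, 4 middle-aged and 1 old in the upstream 2009 group, while the downstream 2010 group held 3 young, 3 middle-aged and 2 old, against 4 young, 3 middle-aged and 1 old in the upstream 2010 group.

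ATP synthase is the enzyme of the inner mitochondrial membrane that makes ATP with the flow of protons driven by respiration. Its F1 head, which projects into the matrix, holds the catalytic alpha and beta subunits, and its Fo part lies in the membrane. ATP5A1 encodes the alpha subunit. The name atp5o stands for OSCP, the subunit that ties the F1 head to the outer stalk, and Atp5l stands for subunit g, a small membrane subunit linked in yeast and mammals to the pairing of the enzyme into dimers. These are nuclear genes, and their products are imported into the mitochondrion. A pair of other contigs of the table belong to the same enzyme under other names: ATPB, read here as the beta subunit (a name also used for the plastid enzyme of algae), and USMG5, the small membrane subunit known as DAPIT. No contig sequence or length was used here, so levels are compared between animals for 1 contig and not between contigs.

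No marker of bivalve kidney was taken as certain, so the tissue label was not checked. Depth was not limiting for these contigs. Libraries held 55723097 to 190000447 counted reads, and the smallest count of any ATP synthase contig in any library was 183 reads, for Atp5l.1.2. ATP5A1 had between 36295 and 148741 reads per library. Levels are given as CPM, a contig's reads relative to the library's total, after TMM scaling, which divides each library's values by a factor that brings most contigs to a common level. The factors ran from 0.503 to 1.468 and were lowest in downstream 2009 replicates 7 and 8, which also had cytosolic ribosomal protein sums of 109945 and 94450 CPM, against 15632 to 31950 CPM in the other downstream 2009 libraries.

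ATP5A1, the F1 alpha contig, was lower at the downstream site in 2010 than in 2009. It had a lowest, median and highest level of 420, 541 and 733 CPM in downstream 2010, against 650, 962 and 1885 CPM in downstream 2009. At the upstream site the same 3 values were 354, 763 and 1026 CPM in 2010, against 584, 767 and 2362 CPM in 2009. The ranges overlapped at both sites, the upstream medians lay close together, and the highest animals of each 2009 group stood above every animal of 2010. The means were 560 ± 119 CPM in downstream 2010, 724 ± 206 in upstream 2010, 1090 ± 468 in downstream 2009 and 1063 ± 651 in upstream 2009 (SD, n = 8 each).

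The OSCP contigs separated the years at the downstream site. The contig atp5o.1.2 ran from 15.2 to 24.8 CPM with a median of 17.8 in downstream 2010, against 26.8 to 104 CPM with a median of 32.1 in downstream 2009. The contig atp5o.2.2 ran from 28.0 to 43.2 CPM with a median of 32.2 in downstream 2010, against 45.7 to 178 CPM with a median of 56.8 in downstream 2009. For both, every 2010 animal lay below every 2009 animal. Of the 5 contigs these 2 had groups that did not overlap, and across all contigs tested 1.7% were likewise lower without overlap. Upstream, atp5o.1.2 ran from 12.2 to 28.8 CPM in 2010, against 18.0 to 125 CPM in 2009, and atp5o.2.2 from 22.5 to 48.4 CPM in 2010, against 32.7 to 194 CPM in 2009. Those upstream ranges overlapped, as did the downstream ranges when reads were scaled to library totals alone, at 35.2 to 52.6 CPM in 2010 against 46.5 to 89.3 CPM in 2009 for atp5o.2.2.

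The subunit g contigs had the same order of years with more overlap. Atp5l.2.2, the contig of the pair with more reads, ran from 35.3 to 67.7 CPM with a median of 57.8 in downstream 2010, against 55.3 to 232 CPM with a median of 74.4 in downstream 2009. Upstream it ran from 32.6 to 83.4 CPM with a median of 56.5 in 2010, against 38.6 to 285 CPM with a median of 64.2 in 2009. Both sites overlapped between years, and the medians differed less than the highest animals did. Atp5l.1.2 ran from 2.17 to 4.65 CPM with a median of 3.90 in downstream 2010, against 3.37 to 17.0 CPM with a median of 4.06 in downstream 2009. Upstream it ran from 1.78 to 5.43 CPM with a median of 3.35 in 2010, against 1.96 to 21.5 CPM with a median of 3.66 in 2009.

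**Figure D1:**
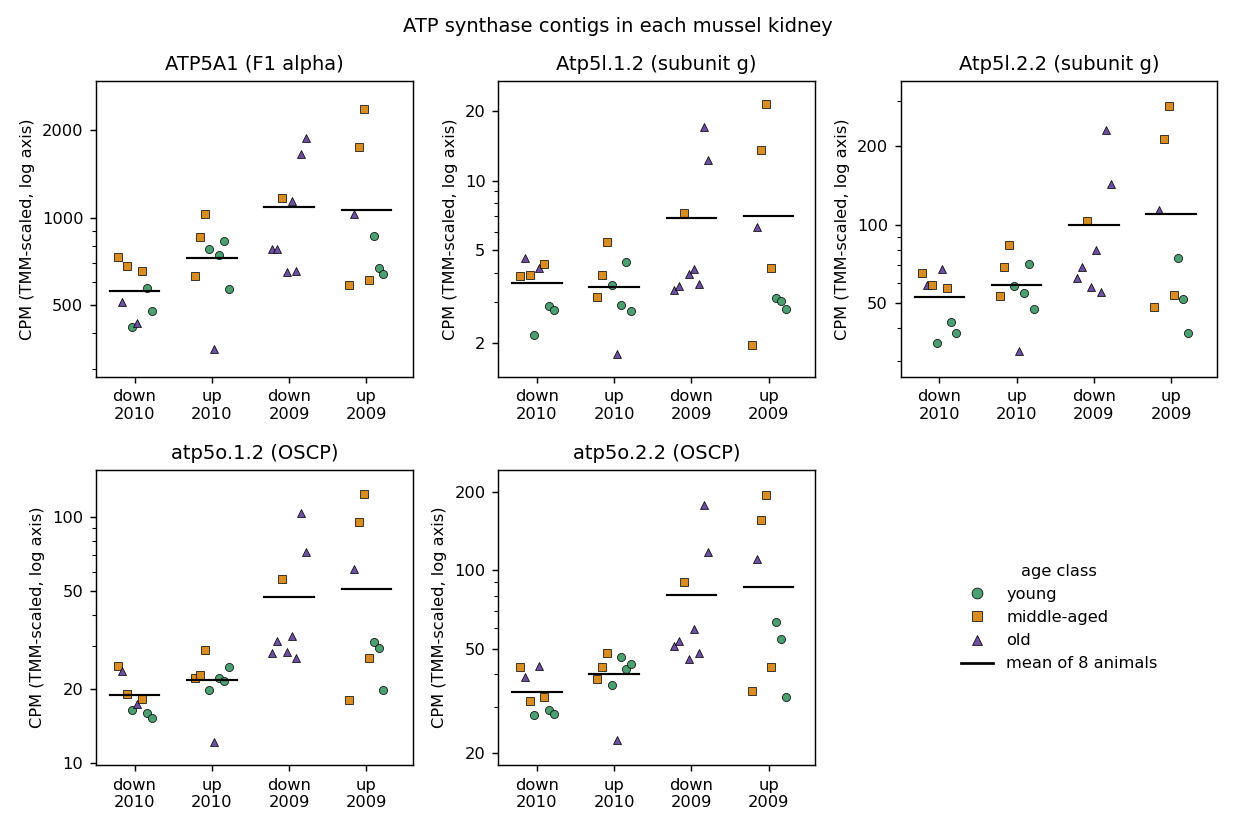
TMM-scaled CPM (log axis) of the 5 ATP synthase contigs in each of 32 mussel kidneys by site and year, with symbols for age class and a line at the mean of 8 animals. In each 2009 group a few animals stand high in every panel, and the downstream 2010 points of both atp5o contigs all lie below those of downstream 2009.

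With TMM scaling, a few 2009 animals carried the highest levels of all 5 contigs. Downstream 2009 replicate 7 had 1656 CPM of ATP5A1, 232 of Atp5l.2.2 and 178 of atp5o.2.2, and replicate 8 of that group had 1885, 143 and 118 CPM of the same contigs. Upstream 2009 replicates 3 and 4 had 1749 and 2362 CPM of ATP5A1, 214 and 285 of Atp5l.2.2, and 155 and 194 of atp5o.2.2. The animal with the least of all 5 contigs was upstream 2010 replicate 5, with 354 CPM of ATP5A1, 32.6 of Atp5l.2.2 and 22.5 of atp5o.2.2. With library totals alone, upstream 2009 replicates 3 and 4 still had the highest levels of all 5 contigs, at 1166 and 1419 CPM of ATP5A1. Downstream 2009 replicates 7 and 8, whose scaling factors were 0.503 and 0.524, then had 833 and 988 CPM of ATP5A1, below replicates 3 and 5 of their own group at 1001 and 1107 CPM and below upstream 2010 replicate 3 at 1027 CPM. For the other contigs, downstream 2009 replicate 7 still had the highest level of its group, with 8.56 CPM of Atp5l.1.2 and 117 of Atp5l.2.2. It had 52.6 CPM of atp5o.1.2 and 89.3 of atp5o.2.2. Replicate 8 of that group lay below its replicate 3 for Atp5l.2.2, atp5o.1.2 and atp5o.2.2, and above it for Atp5l.1.2. The lowest level of ATP5A1 with library totals alone was 406 CPM, in upstream 2009 replicate 7.

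The spread of the scaled levels between animals was wider in 2009. The coefficient of variation of ATP5A1 was 21.2% in downstream 2010 and 43.0% in downstream 2009, and 28.4% in upstream 2010 and 61.3% in upstream 2009. For atp5o.1.2 it was 18.8% in downstream 2010 and 59.4% in downstream 2009, and 21.5% in upstream 2010 and 78.2% in upstream 2009. With library totals alone, the coefficient of variation of ATP5A1 was 18.9% in downstream 2010 and 18.1% in downstream 2009, and 21.7% in upstream 2010 and 37.2% in upstream 2009. That of atp5o.1.2 was then 19.2% in downstream 2010 and 25.6% in downstream 2009, and 14.2% in upstream 2010 and 54.8% in upstream 2009. The wider spread in 2009 at the downstream site thus depended on the scaling for ATP5A1, and the difference in spread was not tested.

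The change between years was tested at each site over all contigs with edgeR's quasi-likelihood test and Benjamini-Hochberg adjustment, and a contig with an adjusted p under 0.05 is called changed. Downstream, 3 of the 5 contigs fell and none rose, where 27.7% of all contigs tested were called and 13.7% were called lower. The called contigs were atp5o.1.2, with a log2 change of -1.33 ± 0.35 (SE, edgeR adjusted p = 0.00493), atp5o.2.2, with -1.23 ± 0.33 (edgeR adjusted p = 0.00599), and ATP5A1, with -0.96 ± 0.29 (edgeR adjusted p = 0.0148). Neither contig of subunit g passed the threshold: Atp5l.2.2 had a log2 change of -0.92 ± 0.36 (edgeR adjusted p = 0.0542) and Atp5l.1.2 one of -0.93 ± 0.42 (edgeR adjusted p = 0.0934). Atp5l.2.2 lay close to the threshold and was called lower with RLE size factors (edgeR adjusted p = 0.0495), with only the groups compared (edgeR adjusted p = 0.0322), in limma-voom (adjusted p = 0.037) and in DESeq2 (adjusted p = 0.0295). The subunits under other names were both called lower, ATPB by a log2 change of -0.84 ± 0.27 (edgeR adjusted p = 0.0195) and USMG5 by -1.12 ± 0.39 (edgeR adjusted p = 0.0299). The median log2 change of the 5 contigs was -0.96, beside -0.02 over all contigs tested. Contigs with a gene or protein name, to which the 5 belong, fell more than all contigs. Over the 1407 of them tested the median was -0.59, and 36.5% were called lower.

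These downstream calls depended on the pair of libraries with the lowest scaling factors. Leaving out downstream 2009 replicates 7 and 8 together left 0 of 5 called in edgeR, where 20.8% of all contigs were called. The log2 changes were then -0.87 for atp5o.1.2 (edgeR adjusted p = 0.0592), -0.78 for atp5o.2.2 (edgeR adjusted p = 0.0713) and -0.65 for ATP5A1 (edgeR adjusted p = 0.109). Leaving out either library alone kept all 3 calls. The calls of ATPB and USMG5 were also lost without both libraries (edgeR adjusted p = 0.123 and 0.325). That of USMG5 was lost with an age term (edgeR adjusted p = 0.119), with a lane term (edgeR adjusted p = 0.0585) and when any 1 of 5 libraries was left out (downstream 2010 replicates 4, 7 and 8 and downstream 2009 replicates 7 and 8), with edgeR adjusted p of 0.0527 to 0.123. Without scaling factors neither was called (edgeR adjusted p = 0.354 and 0.269). Without scaling factors, atp5o.1.2 alone was called, where 28.2% of all contigs were called and 1253 contigs were called lower. The median over all contigs then moved from -0.02 to 0.47. Relative to that median, the 5 contigs' median was -0.80 without scaling factors and -0.94 with them.

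Upstream, 1 of the 5 contigs fell and none rose, where 3.73% of all contigs tested were called and 2.94% were called lower. Of the contigs with a gene or protein name, 8.53% were called lower. The median log2 change was -1.01 over the 5 contigs and -0.34 over the named contigs. The called contig was atp5o.1.2, with a log2 change of -1.23 ± 0.35 (SE, edgeR adjusted p = 0.04). Its partner atp5o.2.2 had -1.10 ± 0.33 (edgeR adjusted p = 0.0535). Atp5l.1.2 had a log2 change of -1.01 ± 0.42, Atp5l.2.2 one of -0.91 ± 0.36 and ATP5A1 one of -0.55 ± 0.29, with edgeR adjusted p of 0.172, 0.154 and 0.298. ATPB and USMG5 were not called, at -0.40 ± 0.27 and -1.02 ± 0.39 (edgeR adjusted p = 0.42 and 0.134). The call of atp5o.1.2 was lost when any of 10 single libraries was left out, among them upstream 2009 replicates 2, 3 and 4, and with replicate 4 out its log2 change was -0.91 (edgeR adjusted p = 0.159). It was also lost with an age term (edgeR adjusted p = 0.0924) and with a lane term (edgeR adjusted p = 0.0642). The size of the change depended on the method. The median log2 change of the 5 contigs was -0.19 in limma-voom with sample weights and -0.46 without scaling factors. The median over all contigs was 0.01 and 0.31 in the same settings.

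The size of the year change was not shown to differ between sites. In the site by year interaction 0 of 5 contigs passed, where 0.441% of all contigs did, and the log2 estimates ran from -0.41 ± 0.41 for ATP5A1 to 0.08 ± 0.58 for Atp5l.1.2 (edgeR adjusted p = 0.871 and 0.995). The count was also 0 of 5 at an unadjusted p under 0.05 in edgeR, and at an adjusted p under 0.05 in DESeq2 and in limma-voom. Both year comparisons also set different animals beside each other in different months, and the index sequences and sample numbers of the libraries differ by group and year, so a change between years cannot be told apart from a difference in handling. Age class also differed between the years downstream, with 7 old and 0 young animals in 2009 against 2 old and 3 young in 2010. With an age term in edgeR, 3 of the 5 contigs were called lower downstream, where 16.2% of all contigs were called. In whole kidney, fewer cells rich in mitochondria and less of these RNAs per cell cannot be told apart.

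**Figure D2:**
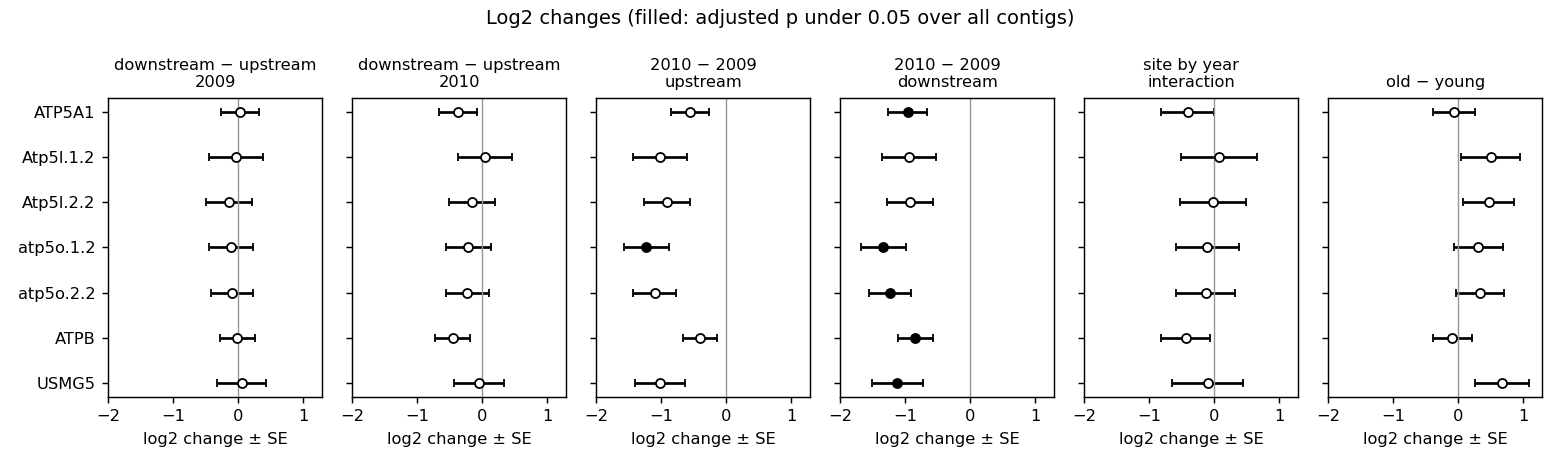
Log2 changes with SE (horizontal axis) of the 5 ATP synthase contigs and of ATPB and USMG5 in each comparison, with filled points where the edgeR adjusted p over all contigs is under 0.05. All 7 contigs lie below 0 in both year comparisons, and the site, interaction and age estimates lie around 0 within about 2 SE.

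No ATP synthase contig differed detectably between the sites in either year. In 2010, ATP5A1 averaged 560 ± 119 CPM downstream and 724 ± 206 upstream, a log2 difference of -0.37 ± 0.29 (SE, edgeR adjusted p = 0.581), and the other 4 contigs differed by -0.22 to 0.04. In 2009 the 5 log2 differences between downstream and upstream ran from -0.13 to 0.04, with SE of 0.29 to 0.41. In edgeR 0 of 5 contigs were called in either year, and 0 of 5 at an unadjusted p under 0.05, where 0.164% of all contigs were called in 2010 and 0% in 2009. DESeq2 also called 0 of 5 in either year. With limma-voom and sample weights, ATP5A1 passed in 2010 with a log2 difference of -0.46 (limma adjusted p = 0.0372), in a setting that called 29.0% of all contigs. The direction in 2009 rested on single libraries: the median of the 5 contigs was -0.36 without downstream replicate 7 and 0.21 without upstream replicate 4.

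Age class did not separate the contigs once site and year were in the model. Young animals had the lowest median of the 3 classes for each contig, for example a lowest, median and highest level of 420, 654 and 864 CPM of ATP5A1 in 10 young animals, 584, 733 and 2362 CPM in 11 middle-aged animals, and 354, 779 and 1885 CPM in 11 old animals. In the edgeR model with site and year, 0 of 5 contigs passed for old against young, also at an unadjusted p under 0.05 and in DESeq2 and limma-voom, where 2.44% of all 51379 contigs tested were called. The log2 differences of old minus young ran from -0.06 ± 0.33 for ATP5A1 to 0.51 ± 0.46 for Atp5l.1.2 (SE, edgeR adjusted p = 0.919 and 0.483). With a term for sequencing lane, Atp5l.1.2 passed with a log2 difference of 1.46 (edgeR adjusted p = 0.042), where 8.43% of all contigs were called. In the downstream 2010 group the 3 young animals had the lowest levels of Atp5l.2.2, at 35.3 to 42.3 CPM, against 57.2 to 65.5 in the 3 middle-aged and 58.5 to 67.7 in the 2 old animals. Upstream in 2010 the young animals did not stand apart, with 47.3 to 70.9 CPM of Atp5l.2.2 in 4 animals, against 53.5 to 83.4 in 3 middle-aged animals and 32.6 in the single old one. These ranges within groups were picked out after the levels were seen and were not tested.

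The levels of the subunits went together from animal to animal. Log2 CPM was centred on the 4 group means, so that differences between groups do not enter, and each of the 10 pairs of contigs was correlated over 32 animals. Pearson's r ran from 0.872 to 0.980 with a median of 0.935, and Spearman's rho from 0.833 to 0.960. Between contigs of different subunits (8 pairs) the median r was 0.920. Every pair had a two-sided p of 1e-05 in a permutation test within groups, the smallest that 100000 permutations can give, and the same after adjustment over the 10 pairs. Without the 2 animals farthest from the median the r values ran from 0.830 to 0.970.

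Within single groups of 8 animals the correlations of the scaled levels were higher in 2009 than in 2010, a difference that was not tested. The median r over the pairs was 0.671 within downstream 2010 and 0.977 within downstream 2009, and 0.832 within upstream 2010 and 0.969 within upstream 2009. The lowest pair in downstream 2010 had an r of 0.181. Depth and scaling are shared by contigs of 1 library, and the levels of all 5 contigs moved against the scaling factor, with r between -0.767 and -0.842 over 32 animals (Spearman's rho between -0.742 and -0.830, permutation p of 3e-05 or less, adjusted p of 3e-05 or less over 5 relations). Without the 2 animals farthest from the median these r values ran from -0.721 to -0.811. The factor is itself a divisor of the level, so part of that relation is built in. With library totals alone the median r between contigs was 0.858 and the lowest was 0.674. Against all other contigs tested, the median r of each of the 5 lay between -0.07 and -0.03, and the top 5% began at 0.67 to 0.75. High r was not confined to mitochondrial genes. Against cytosolic ribosomal protein contigs the median r was 0.619 for ATP5A1, 0.810 for Atp5l.1.2, 0.769 for Atp5l.2.2, 0.847 for atp5o.1.2 and 0.855 for atp5o.2.2. Over the 5 contigs, the median r was 0.820 to 0.898 with complex I of the respiratory chain. With the 8 contigs of cytochrome c oxidase, its assembly factors and cytochrome c it was 0.482 to 0.588. That list mixes subunits with assembly factors. A subunit in it, CX6A1, was among the named contigs most like Atp5l.2.2 and atp5o.2.2 (r = 0.972 and 0.982).

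**Figure D3:**
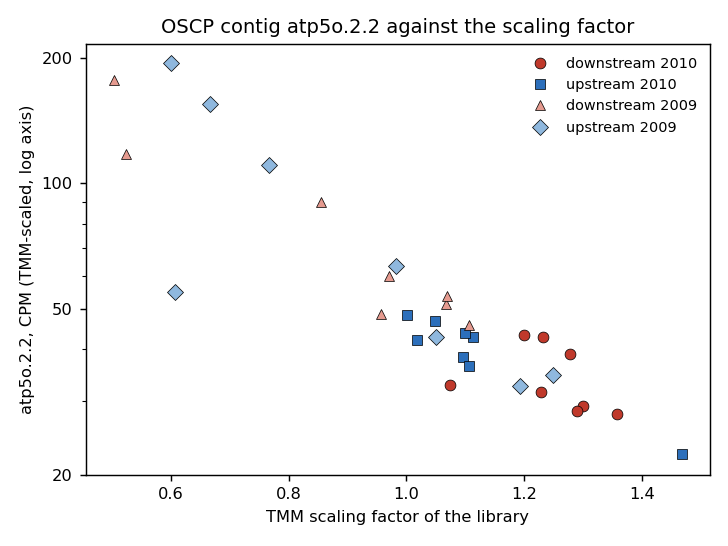
TMM-scaled CPM of the OSCP contig atp5o.2.2 (log axis) against the TMM scaling factor of each of 32 libraries, by group. The high 2009 animals have low factors, and upstream 2010 replicate 5 has both the lowest level, 22.5 CPM, and the highest factor.

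Among all 51263 other contigs, the other parts of the enzyme ranked from 2nd to 775th by their likeness to an ATP synthase contig, and none ranked 1st. ATPB ranked 10th by r for ATP5A1 (r = 0.964), and ATP5A1 ranked 4th for ATPB. USMG5 ranked 2nd for Atp5l.1.2 (r = 0.972) and 11th for Atp5l.2.2 (r = 0.976), and Atp5l.2.2 ranked 2nd for USMG5. The contigs atp5o.1.2 and atp5o.2.2 each ranked 3rd for the other (r = 0.980). The lowest rank of 1 member for another was 775th, for ATP5A1 among the contigs most like atp5o.2.2, which is within the top 1.51%. These correlations are descriptions over 32 animals.

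**Figure D4:**
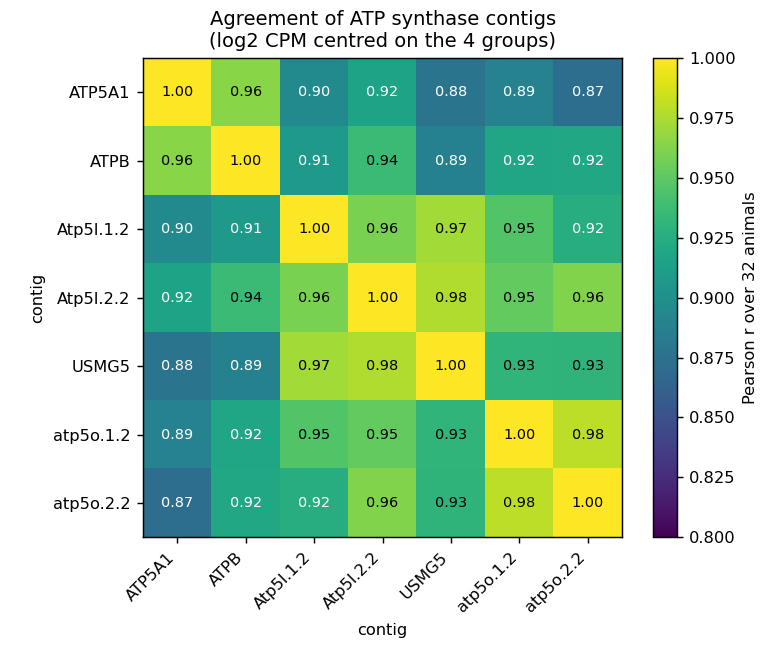
Pearson r over 32 animals (colour and printed value) between the 5 ATP synthase contigs, ATPB and USMG5, from log2 CPM centred on the 4 groups. Alpha with beta (0.96), subunit g with USMG5 (0.97 and 0.98) and the OSCP pair (0.98) are high, and alpha with the OSCP contigs is lower (0.89 and 0.87).

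The named contigs most like each member, with the 5 members themselves left out, were mostly mitochondrial. Of 1402 contigs with a gene or protein name, ATP5A1 was closest to SUCA, the alpha subunit of succinyl-CoA ligase of the citric acid cycle (r = 0.974), then to ATPB and to the complex I subunit NDUFA11 (r = 0.955). The list of 6 citric acid cycle contigs, which holds SUCA, had a median r of 0.466 with ATP5A1. With the other members that median was 0.098 to 0.227. Atp5l.1.2 was closest to USMG5, then to COX17, a copper chaperone of cytochrome c oxidase (r = 0.957), and to the complex I subunit NDUB5 (r = 0.953). Atp5l.2.2 was closest to UQCR10 of complex III (r = 0.982), then to USMG5 and to CX6A1, a subunit of cytochrome c oxidase (r = 0.972). The contig atp5o.1.2 was closest to RM15, a protein of the mitochondrial ribosome (r = 0.973), then to DDTL, named for a D-dopachrome decarboxylase-like protein (r = 0.966), and to gstz1, an enzyme of tyrosine breakdown (r = 0.958). The contig atp5o.2.2 was closest to CX6A1 (r = 0.982), then to gstz1 (r = 0.966) and to tsfm, a mitochondrial translation factor (r = 0.963).

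Called contigs of the respiratory chain and its assembly factors were all lower in 2010, and their counts are read beside all 1407 named contigs tested, of which 36.5% were called lower downstream and 8.53% upstream. Of 11 complex I contigs, 4 fell downstream, or 36.4%, a share close to that of all named contigs, and 2 fell upstream in edgeR, among them NDUFA11, with a log2 change of -1.24 ± 0.29 downstream (SE, edgeR adjusted p = 0.00206), and NDUFB3, with -1.14 ± 0.32 downstream and -1.22 ± 0.33 upstream (edgeR adjusted p = 0.00925 and 0.0301). The 1 complex III contig, UQCR10, fell downstream by 1.11 on the log2 scale (edgeR adjusted p = 0.00813). Of 8 contigs of cytochrome c oxidase, its assembly factors (COX17, COX18 and COX19) and cytochrome c, 4 fell downstream and 0 upstream. Among the 4 were COX17 with -1.24 ± 0.38 and CX6A1 with -1.06 ± 0.34 (edgeR adjusted p = 0.0147 and 0.0188). Of 17 contigs of mitochondrial import and ribosomes, 12 fell downstream and 4 upstream, with a median log2 change of -1.04 downstream. Of 6 citric acid cycle contigs, SUCA fell downstream, with a log2 change of -0.88 ± 0.31 (edgeR adjusted p = 0.0311), and none was called upstream. None of 5 glycolysis contigs was called at either site, and their median log2 change was 0.01 downstream and 0.14 upstream. No contig of these lists was called higher in 2010.

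Contigs outside the mitochondrion also fell downstream in 2010. Of 39 cytosolic ribosomal protein contigs tested, 31 fell downstream and 0 upstream, with median log2 changes of -1.76 and -1.19. Their summed level ran from 7272 to 18351 CPM in downstream 2010, against 15632 to 109945 CPM in downstream 2009. Among contigs named for haemocyte and immune recognition genes, 8 of 13 fell downstream and 1 upstream, and their summed level ran from 60.2 to 203 CPM in downstream 2010, against 113 to 1119 CPM in downstream 2009. Among 17 contigs named for muscle genes, 2 fell downstream, both tropomyosins (TPM1 and TPM.9.10), and none fell upstream. The downstream share was 11.8%, below the 36.5% of all named contigs. The sum of the 17 ran from 383 to 1576 CPM in downstream 2010, against 527 to 6969 CPM in downstream 2009. Of 6 diatom contigs tested, 4 fell downstream and 5 upstream, and their sum ran from 3.29 to 5.74 CPM in downstream 2010, against 7.18 to 21.3 CPM in downstream 2009. Most of that downstream sum was 1 contig, PHATRDRAFT_49505, with a mean of 4.21 CPM in downstream 2010 and 10.7 in downstream 2009. Upstream, the sums ran from 8485 to 17284 CPM in 2010, against 8214 to 57185 CPM in 2009 for cytosolic ribosomal proteins, and from 69.0 to 172 CPM in 2010, against 82.1 to 311 CPM in 2009 for haemocyte genes. The upstream muscle sum ran from 621 to 5418 CPM in 2010, against 567 to 2890 CPM in 2009, and the diatom sum from 1.88 to 6.04 CPM in 2010, against 5.10 to 61.4 CPM in 2009. The part of these cell and food markers in the ATP synthase change was not tested. Over all 1407 named contigs tested, 514 fell and 53 rose downstream, with a median log2 change of -0.59, and 120 fell and 10 rose upstream, with a median of -0.34.

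The balance between subunits was compared within each library, where no scaling factor enters. Reads of both contigs of a name were summed, and the log2 ratio of subunit g to OSCP was 0.07 ± 0.19 in downstream 2010 and -0.27 ± 0.08 in downstream 2009 (SD, n = 8 each). The difference of 0.33 had a two-sided exact permutation p of 0.000777, and 0.0124 after Benjamini-Hochberg adjustment over 16 ratio comparisons. The ranges overlapped, at -0.25 to 0.30 in downstream 2010 and -0.40 to -0.15 in downstream 2009. Upstream the log2 ratio of g to OSCP was -0.01 ± 0.24 in 2010 and -0.29 ± 0.20 in 2009 (SD, n = 8 each), a difference of 0.28 with an exact permutation p of 0.0305 and an adjusted p of 0.129. At the downstream site OSCP reads were fewer in 2010 relative to those of subunit g, and upstream the difference did not pass the correction.

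The other ratios did not pass the correction. Alpha over OSCP had a log2 ratio of 3.52 ± 0.26 in upstream 2010 and 3.08 ± 0.34 in upstream 2009 (SD, n = 8 each), a difference of 0.44 with an exact permutation p of 0.0146 and an adjusted p of 0.117. Downstream that ratio differed by 0.23 between 2010 and 2009 (adjusted exact permutation p = 0.448). Alpha over beta, the 2 subunits of the catalytic head, differed between 2010 and 2009 by -0.11 downstream and -0.15 upstream (adjusted exact permutation p = 0.498 and 0.129). Alpha over g differed by -0.10 downstream and 0.16 upstream (adjusted exact permutation p = 0.715 and 0.498). No ratio passed between the sites in either year. The ratios were chosen after the levels had been examined, they share groups, and they compare reads without contig lengths.

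**Figure D5:**
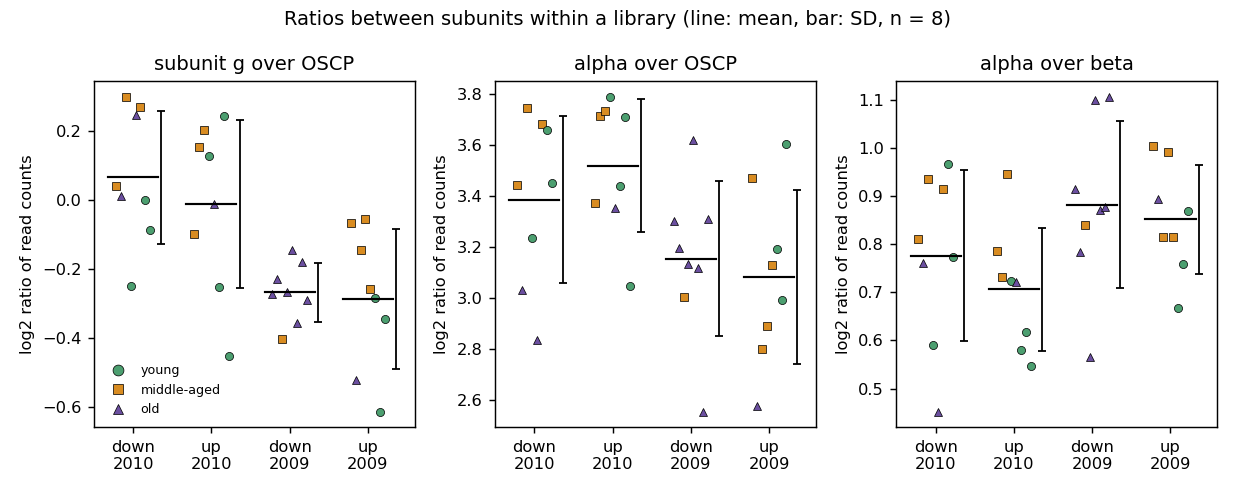
Log2 ratios of read counts within a library for subunit g over OSCP, alpha over OSCP and alpha over beta in each of 32 mussel kidneys, by group, with the mean and SD of 8 animals and symbols for age class. Subunit g over OSCP has a mean of 0.07 in downstream 2010 and -0.27 in downstream 2009.

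The share of reads held by each contig of a name was compared over animals. The contig atp5o.1.2 held a median of 35.9% of the reads of both OSCP contigs over 32 animals, with a range of 28.7% to 39.2%. Atp5l.1.2 held a median of 5.86% of the reads of both subunit g contigs, with a range of 3.89% to 7.89%. Whether contigs of a name are alleles, copies or parts of 1 transcript is not given in the sources used here, nor is how reads that fit both were counted, so the contigs of a pair are not independent.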

How the data were processed

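Kidney RNA of 32 mussels was sequenced. Per the submitters' processing notes, BWA 0.7.12 and SAMtools 1.1 were used. Assembly, annotation, strand and treatment of reads that fit several contigs are not given in the sources used here. The authors deposited raw read counts per contig, as whole numbers that were not normalized. Groups come from the site and year labels, and replicate numbers only name animals. The labels number the samples as separate individuals.

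Counts were filtered with filterByExpr (minimum count 10) and scaled by TMM. They were tested with edgeR 4.0.16 in R 4.3.3 (robust quasi-likelihood fit, 4 group means over all 32 libraries, with age class added for the age comparison). Benjamini-Hochberg adjustment ran over all contigs tested. The SE beside an edgeR log2 change was derived from its test, as the absolute change divided by the square root of the F statistic. Log2 CPM used a prior count of 2. Alternatives used limma 3.58.1, DESeq2 1.42.0, RLE size factors, other filters, age and lane terms, and libraries left out. Library totals alone and the ratio tests were added after seeing the data. The contigs, lists and tests were chosen with earlier results of these data known. All 5 rows with the name were reported, with the 3 named contigs most like each and up to 2 called contigs of smallest p per list; 4 names that a pattern matched but that stand for other proteins were dropped. No contig matched the lists for complex II, carriers, vacuolar and P-type ATPases or germ cells. Scripts were tested on simulated data.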

Additional observations from a re-analysis of the deposited data

Results flagged for a closer look

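In 3 of 44 groups of 8 animals, the lowest animal lay far from the rest by Dixon's test, which chance alone does in about 5% of groups. The OSCP contig atp5o.2.2 had 22.5 CPM in upstream 2010 replicate 5, and the next lowest animal of that group had 36.6 CPM. The log2 ratio of alpha to subunit g was 2.73 in downstream 2009 replicate 7, and the next lowest was 3.40. The contig atp5o.1.2 held 28.7% of the reads of both OSCP contigs in downstream 2010 replicate 5, and the next lowest share was 34.9%.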

How the results depend on the processing

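No paired analysis was possible because the labels give no replicate numbers that groups share. A term for sequencing lane, which every group shares, was fitted as an alternative.

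In the downstream year comparison, 3 contigs were called as reported, 1 without scaling factors and 0 without downstream 2009 replicates 7 and 8 together, 3 to 4 when each library was left out in turn, and 4 with RLE factors, with only the groups compared, in limma-voom and in DESeq2. The share of all contigs called was 27.7% as reported, 28.2% without scaling factors and 20.8% without downstream 2009 replicates 7 and 8. It was 27.9% with RLE factors, 22.7% with only the groups compared, 47.7% in limma-voom and 32.2% in DESeq2. Contigs called lower numbered 7022 as reported, 1253 without scaling factors and 4407 without downstream 2009 replicates 7 and 8. In the upstream year comparison 1 was called, against 0 with an age term, with a lane term, without scaling factors, with only the groups compared and in limma-voom, and 2 with a filter of 1 CPM in 8 libraries, in DESeq2 and without downstream 2009 replicates 7 and 8. Leaving out each library in turn gave 0 to 2. The share of all contigs called upstream was 3.73% as reported, 2.86% with an age term, 2.82% with a lane term and 1.0% without scaling factors. It was 2.33% with only the groups compared, 5.21% in limma-voom and 4.14% with the 1 CPM filter. In DESeq2 it was 7.05%, and without downstream 2009 replicates 7 and 8 it was 8.61%. For the site in 2010 limma-voom called 1 against 0, and for age the lane term called 1 against 0. ATPB was also called for the site in 2010 in limma-voom (log2 difference -0.59, adjusted p = 0.00443), and USMG5 for age with a lane term (1.45, edgeR adjusted p = 0.0372) and without group terms (1.11, edgeR adjusted p = 0.0223). The median correlation between contigs was 0.935 and became 0.858 without scaling factors. Causes were not tested beyond what each setting changes.

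No year change of the 5 contigs turned sign under any alternative. ATPB did upstream, with log2 changes of 0.049 without scaling factors and 0.014 in limma-voom. The sizes did move. Upstream, the log2 change ran from -1.04 to -0.04 over 10 alternatives for Atp5l.1.2, and from -0.58 to -0.09 for ATP5A1. Downstream, the median of the 5 contigs was -0.33 without scaling factors and -0.62 in limma-voom, against -0.96 as reported. Estimates of other comparisons turned sign as follows, none of them called. For the site in 2009 the log2 difference was 0.062 for Atp5l.1.2 and 0.20 for ATPB with an age term. With a lane term it was 0.097 for Atp5l.1.2, 0.0030 for Atp5l.2.2 and 0.050 for ATPB. With only the groups compared it was 0.0012 for Atp5l.1.2 and 0.014 for ATPB. In limma-voom it was 0.096 for Atp5l.1.2, 0.014 for Atp5l.2.2, 0.032 for atp5o.1.2 and 0.052 for ATPB. Without scaling factors it was 0.0092 for ATPB, and without downstream 2009 replicates 7 and 8 it was -0.29 for ATP5A1 and -0.56 for USMG5. For the site in 2010 Atp5l.1.2 was at -0.070 with an age term and -0.20 in limma-voom, Atp5l.2.2 at 0.026 and USMG5 at 0.12 without scaling factors, and USMG5 at 0.061 with a lane term. The interaction of Atp5l.1.2 was -0.13 with an age term and -0.30 in limma-voom, and that of Atp5l.2.2 was 0.0036 with the 1 CPM filter. Without scaling factors the interactions were 0.15 for Atp5l.2.2, 0.064 for atp5o.1.2, 0.046 for atp5o.2.2 and 0.096 for USMG5. Without downstream 2009 replicates 7 and 8 they were 0.46 for Atp5l.2.2, 0.37 for atp5o.1.2, 0.33 for atp5o.2.2 and 0.51 for USMG5. Old minus young was 0.45 for ATP5A1 and 0.27 for ATPB without group terms, and 0.37 and 0.28 with a lane term. The log2 ratio of alpha to beta between sites in 2009 was -0.0062 without downstream 2009 replicates 7 and 8.

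When each library was left out in turn, the estimates that turned sign had these log2 ranges. For the site in 2009 they were -0.11 to 0.29 for ATP5A1, -0.36 to 0.44 for Atp5l.1.2, -0.42 to 0.21 for Atp5l.2.2, -0.36 to 0.21 for atp5o.1.2, -0.35 to 0.17 for atp5o.2.2, -0.12 to 0.20 for ATPB, -0.29 to 0.41 for USMG5. For the site in 2010 they were -0.075 to 0.16 for Atp5l.1.2, -0.16 to 0.064 for USMG5. For the interaction they were -0.40 to 0.41 for Atp5l.1.2, -0.37 to 0.28 for Atp5l.2.2, -0.42 to 0.16 for atp5o.1.2, -0.40 to 0.13 for atp5o.2.2, -0.47 to 0.26 for USMG5. For old minus young they were -0.14 to 0.15 for ATP5A1, -0.15 to 0.13 for ATPB. The log2 ratio differences were, between sites in 2009, -0.0060 to 0.15 for alpha over g, -0.029 to 0.051 for g over OSCP and -0.0018 to 0.075 for alpha over beta, and between years downstream -0.20 to 0.00015 for alpha over g. The year difference of g over OSCP downstream ran from 0.30 to 0.38.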
